A study of Mus musculus with 6 samples.

Results

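The vehicle-treated group of a drug study in MB21 cells is described here as a baseline transcriptome. MB21 is a mouse medulloblastoma cell line, and the labels give its genotype as ptch mutant without naming the site of the mutation. Its 3 libraries, of 6 in the series, were chosen by their label as DMSO controls. The cells grew without attachment in serum-free DMEM/F12 medium with B27, and were given DMSO, the vehicle, for 1 day. That time is the one in the title, the sample titles and the treatment protocol, whereas the design text names 5 days. The other 3 libraries, from the same line under the compound DS-1-38, were not compared with them. A cell line is 1 culture history, and nothing in the labels tells if the 3 replicates came from separate cultures, so their spread may be technical.

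Medulloblastoma of the hedgehog class arises from granule neuron precursors, the cells of the cerebellar external germinal layer that carry the transcription factor Atoh1. In these precursors Sonic hedgehog, made by Purkinje neurons, binds Patched and so frees the receptor Smoothened. Smoothened then keeps the GLI transcription factors active, and loss of Patched leaves the pathway running without ligand. Cells that leave the cycle turn on Neurod1, migrate inwards and acquire the channels and receptors of mature granule neurons.

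The libraries held 50014681, 48560824 and 38840296 counts in replicates 1 to 3. Levels are given in TPM, the usual length-corrected transcript share: each count divided by the deposited gene length, then scaled so that every library has the same sum, which allows genes to be compared per length. A gene is called detected at 1 TPM or more in each of the 3 libraries, and silent at 0 counts in all 3. Over all gene identifiers 15077 of 55416 (27.2%) were detected, and over protein-coding genes outside the mitochondrial genome 11359 of 21915 (51.8%). The silent coding genes numbered 5598 (25.5%). The median level over all coding genes was 1.92 TPM, 39.8% stood at 10 TPM or more in each library, and 9.17% at 100 TPM or more. These shares and this median are the background for every list below. A count of 0 over the 3 libraries together, read as at most 3 counts, allows up to 0.0882 TPM for a gene of 1 kb, and this limit covers counting error only. Values with ± are means ± SD of the 3 libraries (n = 3).

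The 8 markers were all detected, as were 51.8% of all coding genes. They were chosen with earlier results of these data known, so their detection does not test the label of the line. Atoh1, which specifies the granule lineage, stood at 607, 602 and 633 TPM in replicates 1 to 3, above 99.2% of coding genes. Replicate 3 was highest, and the range was narrow. Mki67, a protein of cycling cells, stood at 593, 551 and 489 TPM, and Nes, the intermediate filament nestin of neural progenitors, at 517, 494 and 486 TPM. Both were highest in replicate 1 and lowest in replicate 3. Zic1, a zinc-finger factor of the granule lineage, had 479, 468 and 452 TPM, and Barhl1, a homeodomain factor of the rhombic lip, had 197, 189 and 199 TPM. Neurod1, which marks precursors that begin to differentiate, had 169.5, 163 and 161 TPM. Gli1, the hedgehog effector that is also its most used readout, had 109.7, 119 and 121 TPM, lowest in replicate 1. Fat2, a giant cadherin of granule cells, was the lowest of the 8 at 24.9, 23.2 and 19.9 TPM. The plot of marker levels shows these values for each library.

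**Figure D1:**
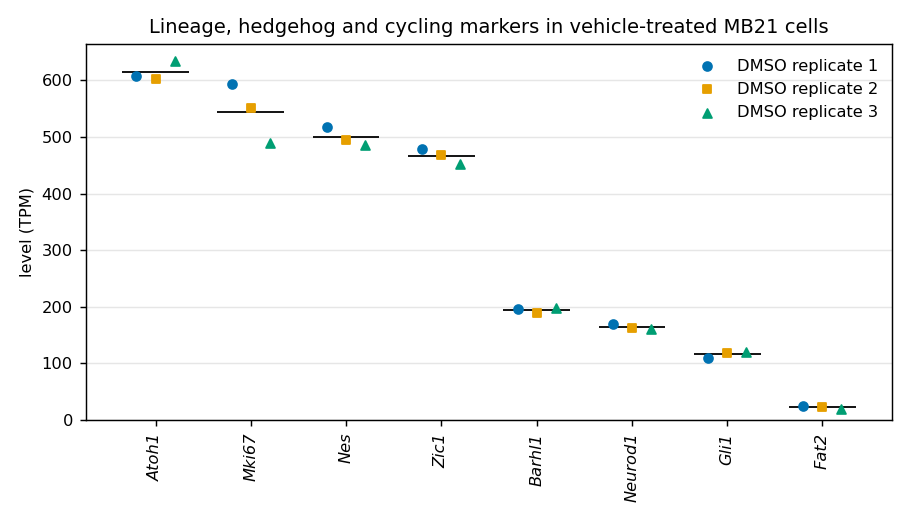
Level (TPM, linear axis from 0) of the 8 marker genes in each DMSO library. Points are libraries and horizontal lines their means; Atoh1 has the highest mean at 614 TPM and Fat2 the lowest at 22.7 TPM, and the coefficient of variation over the libraries runs from 2.60% to 11.2%.

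Levels depend on the length each count is divided by. With the longest annotated coding sequence in place of the deposited length, Atoh1 came to 391 TPM, Nes to 181, Mki67 to 182, Gli1 to 55.2 and Fat2 to 7.99, each moved by over 1.5 times. With the longest coding transcript Atoh1 came to 469 TPM, Nes to 399, Mki67 to 416, Gli1 to 109.6 and Fat2 to 17.3. Zic1 moved the other way by coding length, to 626 TPM, and so replaced Atoh1 as the highest marker there, while by longest transcript it came to 362 TPM and Atoh1 led.

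Of 30 factors of the granule lineage, 27 were detected, 11 of them at 100 TPM or more in each library, and none was silent. Their median level was 73.4 TPM. The highest was Nfib, of the nuclear factor I family, at 691, 645 and 617 TPM, highest in replicate 1. Its relative Nfia stood at 451 ± 21.7 TPM, Insm1 (a zinc-finger factor of neuroendocrine and neuronal precursors) at 334 ± 10.4 TPM, and Nhlh1 (a basic helix-loop-helix factor of newborn neurons) at 284 ± 2.67 TPM. Zic2 was at 272 ± 4.84 TPM and Nfix at 225 ± 6.22 TPM. Factors of the early rhombic lip and of the midbrain-hindbrain boundary were lower. Olig3 had 84.4 ± 2.59 TPM, En2 had 68.7 ± 2.304 TPM and Pax6 had 25.9 ± 0.417 TPM. The members not detected were Gbx2 with 48 counts in all, Meis2 with 12 and Lmx1a with 8.

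Among 34 genes of granule neuron maturation 25 were detected, with a median of 18.7 TPM, well below that of the lineage factors. Plxnb2, a semaphorin receptor of migrating precursors, led with 864, 827 and 839 TPM, and Gap43, a growth cone protein, followed with 508 ± 5.66 TPM. Cbln1, the secreted synaptic organiser of granule cells, had 100.3 ± 0.841 TPM and the neuronal tubulin gene Tubb3 had 92.8 ± 8.01 TPM. Detected genes of newborn neurons included Dcx (microtubule binding) at 67.7 ± 2.81 TPM and Rbfox3 (the nuclear antigen NeuN) at 66.9 ± 0.869 TPM. Cntn2 (the adhesion protein TAG-1) was at 66.6 ± 0.596 TPM. Bulk libraries do not show if the same cells carry these transcripts. Some genes of the mature cell were at the other end of the list. Gabra6, the GABA receptor subunit that defines mature granule neurons, and Kcnd2, an A-type potassium channel, had no count. Grin2c, the NMDA receptor subunit of mature granule neurons, had 4 counts. Of other members, Cntn1 had 3 counts and Grin2b, the subunit that Grin2c replaces as these neurons mature, had 1.

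Neural stem and progenitor genes were detected in 16 of 22 cases, with a median of 36.6 TPM. After Nes came Sox11 at 185 ± 7.67 TPM and Sox4 at 181 ± 6.92 TPM, a pair of high-mobility-group factors of committed neuronal precursors whose library ranges overlapped. Sox9 stood at 125 ± 3.03 TPM and Prom1 (the surface antigen CD133) at 52.9 ± 0.56 TPM. Sox3 was silent, while Neurog1 had 14 counts and Neurog2 had 5. Olig1 at 36.6 ± 0.927 TPM stood far above its neighbour gene Olig2 at 2.17 ± 0.547 TPM.

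Markers of other cell types that a cerebellar culture could hold were mostly at or near 0. In a bulk library, fewer cells of a type and less RNA per cell cannot be told apart. Of 13 microglial and leukocyte genes 1 was detected (the lysosomal gene Cd68, at 4.62 ± 0.742 TPM) and 7 were silent, among them Cx3cr1, Itgam, C1qa, C1qb, Tyrobp and Cd3e. Their summed level was 4.97 to 5.85 TPM. Of 12 endothelial and mural genes none was detected and Cldn5, Kdr and Rgs5 were silent, with a sum of 1.22 to 1.42 TPM in which Tek, Pecam1 and Cdh5 were highest. Of 12 epithelial and muscle genes none was detected either (sum 1.15 to 2.55 TPM), with the keratin genes Krt5, Krt14 and Krt18 silent. The 10 pluripotency and germline genes gave the same picture, with a sum of 0.803 to 1.24 TPM and Lin28a, Zfp42, Dppa3 and Utf1 silent.

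Glial lists were carried by a few genes. Of 12 astrocyte genes 4 were detected, led by the glutamate transporters Slc1a2 at 96.5, 94.5 and 90.3 TPM and Slc1a3 at 68.4, 64.98 and 68.1 TPM. Gfap had 4.095 ± 0.243 TPM, Aldh1l1 had 2 counts, Gja1 had 1 and Aqp4 none, within a sum of 168 to 173 TPM. Of 13 oligodendrocyte genes 4 were detected (sum 39.7 to 40.2 TPM), most of it Pdgfra, a growth factor receptor of oligodendrocyte precursors that mesenchymal cells also carry, at 28.4 ± 0.262 TPM, with Cnp of myelin at 6.26 ± 0.231 TPM. The factor that defines the oligodendrocyte lineage, Sox10, had 2 counts, and Mag and Enpp6 had none. Of 11 fibroblast and meningeal genes 5 were detected, led by Igfbp2 at 46.5 ± 3.74 TPM, while Postn was silent and Col1a2 had 5 counts (sum 80.5 to 86.8 TPM). The detected transporters and Pdgfra therefore stood beside near-empty defining markers of each glial type, and the part of such cells in any level given here was not tested.

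The same split was seen for other neurons. Of 15 Purkinje and GABA neuron genes 5 were detected, with Lhx1, a LIM homeodomain factor, at 152, 145 and 142 TPM and Pvalb, a calcium-binding protein, at 117, 111 and 126 TPM. Itpr1, the calcium release channel, followed at 25.5 ± 1.46 TPM. Calb1, Car8, Ptf1a, Gad2, Slc32a1, Pax2 and Skor2 were silent, and Gad1 had 7 counts. Of 12 forebrain and midbrain genes 6 were detected, among them Otx2 at 49.6, 48.3 and 49.8 TPM, Dlx1 at 13.8 ± 0.353 TPM, Otx1 at 8.31 ± 0.324 TPM and Dlx2 at 3.87 ± 0.737 TPM. Emx1 had 3 counts, Emx2 had 1 and Nkx2-1 none. Of 15 genes of the hindbrain list, which holds HOX genes and segment factors, 2 were detected, among them Egr2 at 2.87 ± 0.611 TPM. In the same list 10 HOX genes had no count, including Hoxa5, Hoxb1, Hoxb2, Hoxd3 and Hoxd4. The cerebellum forms rostral to the HOX-expressing hindbrain. The plot of detection by list places these groups beside the coding background.

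**Figure D2:**
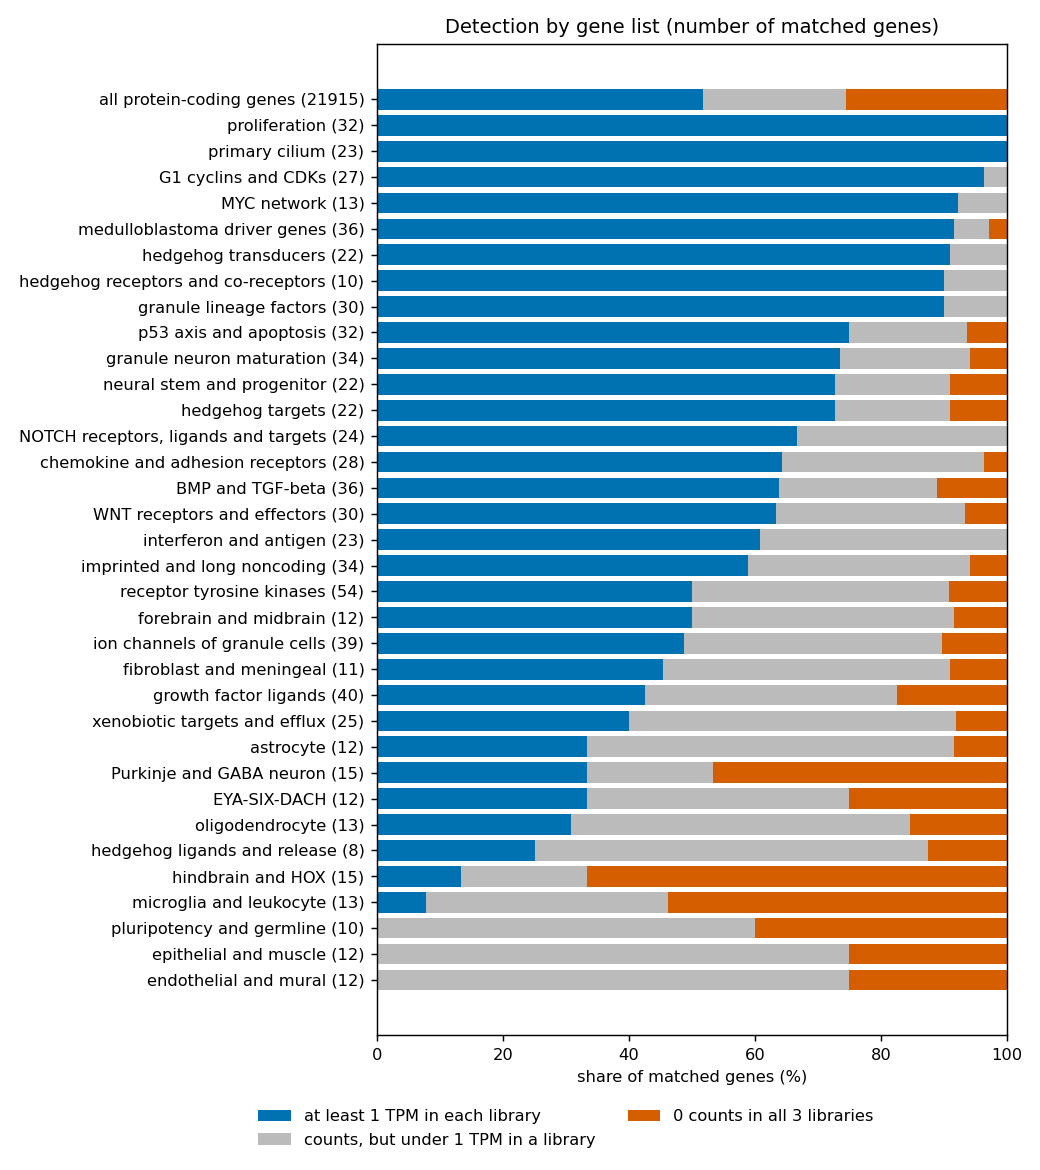
Share (%) of the matched genes of each list that were detected (blue), had counts but fell under 1 TPM in a library (grey) or had 0 counts in all 3 libraries (orange), with the number of matched genes in brackets and all protein-coding genes on top. Proliferation and primary cilium genes were all detected, and no endothelial, epithelial, muscle or pluripotency gene was.

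The hedgehog pathway was read from ligand to target. Of 8 genes for ligands and their release, 2 were detected. Shh had 4 counts in all, Ihh had 15 and Dhh had none, and Hhat, the acyltransferase that completes the ligand, had 6. Disp1, the transporter that releases the ligand, was at 13.7 ± 1.11 TPM and Scube3, a secreted carrier, at 2.93 ± 0.258 TPM. The detected members of this list are thus release factors, with each ligand gene far under 1 TPM.

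Of 10 receptors and co-receptors 9 were detected, with a median of 49.0 TPM. Boc, a co-receptor of the ligand, led with 224, 219 and 218 TPM. Smo, the signalling receptor Smoothened, had 194, 196 and 200.1 TPM, and Adcyap1r1, the receptor for the neuropeptide PACAP that opposes the pathway through cyclic AMP, had 194, 192 and 193 TPM. The 3 libraries lay close together for each of these genes. Among the co-receptors Gas1 had 88.8 ± 0.955 TPM and Cdon only 3.23 ± 0.11 TPM, so Boc held 70.5% of the summed co-receptor level. Divided by coding length, Boc came to 93.1 TPM and still led the co-receptors. Ptch1, the Patched receptor gene, stood at 59.9, 59.2 and 57.8 TPM, lower than Smo in every library. Counts over the whole gene do not show the mutation that the genotype label names. Hhip, a membrane protein that binds and retains the ligand, had 38.1 ± 1.08 TPM, and Gpr161, a ciliary receptor that restrains the pathway, had 39.03 ± 1.33 TPM. Lrp2 had 2 counts.

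Among the 22 transducers 20 were detected, with a median of 42.1 TPM. Protein kinase A, which marks GLI proteins for processing, was represented by its regulatory subunit gene Prkar1a at 399 ± 3.58 TPM and its catalytic subunit gene Prkaca at 196 ± 1.59 TPM. Cul3, the scaffold of a ubiquitin ligase, had 258 ± 6.93 TPM. Sufu, which holds GLI proteins in the cytoplasm, had 47.1 ± 1.16 TPM and Kif7, a kinesin of the ciliary tip, had 16.2 ± 0.869 TPM. All 23 matched genes of the primary cilium, the organelle in which these steps take place, were detected, the highest being Kif3a at 92.99 ± 3.68 TPM, Tulp3 at 50.6 ± 1.53 TPM and Kif3b at 45.97 ± 1.899 TPM. Spop, the adaptor that brings GLI proteins to Cul3, was an exception among the transducers. It had 4, 16 and 7 counts, a level of 0.251 ± 0.16 TPM. In GENCODE M21, an annotation of an older build than GRCm39, it shares no exon bases with another gene. Whether that holds in the annotation used for counting is not known. The genes that flank Spop on the chromosome, Slc35b1 at 337 ± 15.02 TPM and Nxph3 at 132 ± 7.73 TPM, were abundant. Spopl, a relative of Spop, had 22.3 ± 0.402 TPM, under the median of 32.3 TPM of the detected coding genes. Spop was singled out after its values were seen.

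Of the GLI factors, 2 were abundant and Gli3 was nearly silent. Gli2, the main activator, stood at 206, 189 and 186 TPM and Gli1, itself a target, at 109.7, 119 and 121 TPM. Gli2 was above Gli1 in every library, by 1.54 to 1.88 times, and highest in replicate 1, where Gli1 was lowest. Gli3, the main repressor, had a count of 1, 0 and 0. The next genes beyond it on the chromosome were also near 0, with no count for Inhba and 3 for Sugct, whereas AW209491 on the other side had 16.5 ± 1.07 TPM. With coding length Gli2 came to 90.8 TPM and still led. The promoters of Gli2 and Gli3, taken as the 250 bases before the annotated start in RefSeq on GRCm38.p6, are shown because a highly expressed and a nearly silent paralog can be read side by side. Each CpG dinucleotide (the letters CG, which read the same on both strands) is in capitals. That of Gli2 is chr1:119053620-119053869 on the minus strand and that of Gli3 is chr13:15463473-15463722 on the plus strand.
Gli2: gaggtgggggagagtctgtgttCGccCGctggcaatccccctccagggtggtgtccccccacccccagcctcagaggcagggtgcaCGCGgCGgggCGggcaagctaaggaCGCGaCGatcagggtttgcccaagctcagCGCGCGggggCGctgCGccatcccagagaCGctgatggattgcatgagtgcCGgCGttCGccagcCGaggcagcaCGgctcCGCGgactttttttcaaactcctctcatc
Gli3: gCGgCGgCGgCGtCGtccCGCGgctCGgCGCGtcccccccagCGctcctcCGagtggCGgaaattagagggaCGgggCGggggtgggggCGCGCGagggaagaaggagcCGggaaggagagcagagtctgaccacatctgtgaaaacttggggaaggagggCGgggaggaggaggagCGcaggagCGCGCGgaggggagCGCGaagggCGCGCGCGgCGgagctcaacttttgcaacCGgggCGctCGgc
The Gli2 window held 22 CpGs at 67.2% G and C, and the Gli3 window held 34 at 72.8%. The CpG-denser promoter therefore belonged to the paralog with 1 count. Over all 13827 coding genes with a single promoter entry, CpG number was larger at higher levels. The median number was 2 for silent genes, 5 for those under 1 TPM, 13 from 1 to 10 TPM, 18 from 10 to 100 TPM and 19 at 100 TPM or more. At least 10 CpGs were found in 9.14% of silent genes' windows and in 88.8% of those at 100 TPM or more. These are descriptions of the reference sequence, and methylation was not measured.

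Of 22 hedgehog target genes 16 were detected, each of them at 10 TPM or more, with a median of 57.2 TPM. Ccnd1, the cyclin that drives entry into the cycle, led with 588, 580.01 and 583 TPM (982 TPM by coding length). Sfrp1, a secreted WNT inhibitor, had 424, 415 and 423 TPM and Sox18, a factor better known from endothelium, had 339.7, 335 and 359 TPM. Sox18 was high although the endothelial list was near 0. Bmi1, of the Polycomb group, had 341 ± 12.6 TPM, Foxm1 had 142 ± 2.41 TPM and Mycn had 55.4 ± 1.03 TPM. The other 6 targets were not detected. Foxl1 and Igf2 were silent, Nkx2-2 had 3 counts, Spp1 had 5 and Foxf1 and Cyp1b1 had 48 each. Igf2 shares 64.5% of its exon bases with another gene, so its reads may not have been assigned. The plot of pathway levels by role shows all 4 groups.

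**Figure D3:**
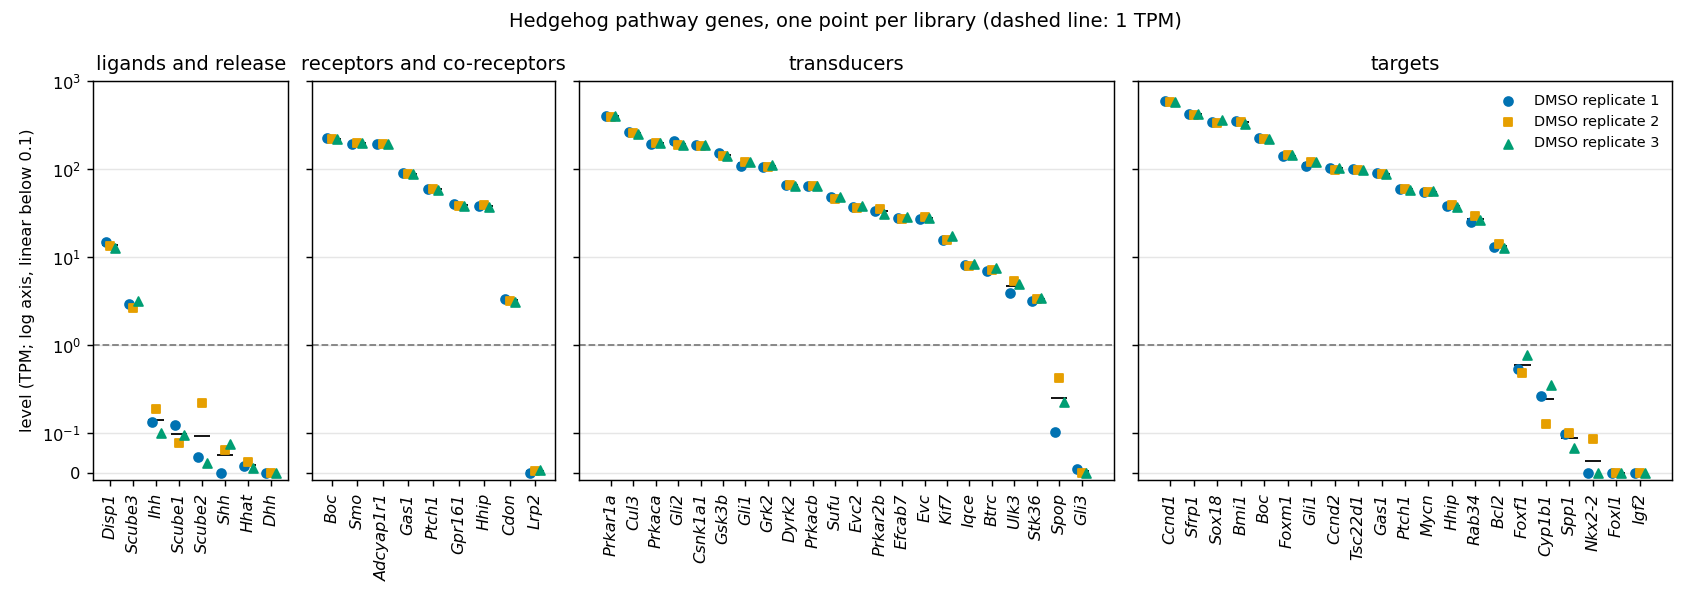
Level (TPM, log axis that is linear below 0.1) of the reported hedgehog ligand and release genes, receptors, transducers and targets in each DMSO library, with means as horizontal lines and 1 TPM as a dashed line. Receptors, transducers and targets sit mostly above 10 TPM, whereas the ligand genes, Spop and Gli3 fall under 1 TPM.

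Families of related genes were compared by the share of each member in the summed TPM of its family. Of 75 families, 73 had a detected leader and 72 of these kept the same leader in each library. The leader held at least 90% in 23 families, 75% to 90% in 13, 50% to 75% in 25 and less in 12. The ranges of the first and second member overlapped in 2 families, Sox11 with Sox4 and Mxi1 with Mxd3. No member was detected in the IGF2BP and LIN28 families, RNA-binding proteins of early embryonic cells.

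Several families rested on 1 gene. Cxcr4, the receptor for the meningeal chemokine CXCL12 that holds granule precursors at the cerebellar surface, stood at 1037, 1022 and 1115 TPM (561 TPM by coding length). The other CXCL12 receptor, Ackr3, had 13 counts, and Cxcl12 itself had none. In the chemokine and adhesion list 18 of 28 genes were detected, and after Cxcr4 came Bsg (basigin) at 506 ± 23.6 TPM and the integrin gene Itgb1 at 406 ± 2.86 TPM. Sox18 held nearly the whole SOXF family, with 5 counts for Sox7 and 0 for Sox17. Ntrk3, the neurotrophin-3 receptor, was at 43.9, 41.6 and 38.7 TPM against 1 count for Ntrk2. Eya3 was at 70.8, 71.4 and 70.04 TPM and held 98.7% of the EYA family, which encodes phosphatases that also act as coactivators. Eya4 had 0.846 ± 0.132 TPM, Eya2 11 counts and Eya1 none. Among their homeodomain partner genes Six5 led at 15.8 ± 0.849 TPM, Six2 had 6.28 ± 0.192 TPM and Six6 was silent. Dach1, a cofactor of the Dachshund family, had 6.903 ± 0.264 TPM. Hmga1, a chromatin protein with many processed copies in the genome, stood at 142 ± 5.09 TPM while Hmga2 was silent. Aldoa led the aldolases at 682 ± 30.2 TPM, with Aldoc at 0.988 ± 0.198 TPM.

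Lineage families were more graded. Barhl1 held 91.3% of the BarH-like pair, over Barhl2 at 18.4 ± 0.524 TPM. Meis1, a homeodomain cofactor, held 90.3% of its family at 103, 98.4 and 101 TPM, with Meis3 at 10.7 ± 1.89 TPM and Meis2 at 12 counts. In the ZIC family Zic1 held 49.9% and Zic2 29.1%, followed by Zic5 at 146 ± 5.49 TPM and Zic4 at 46.6 ± 0.692 TPM. Neurod1 was followed by Neurod2 at 36.3 ± 0.633 TPM, Neurod6 at 3.98 ± 0.314 TPM and Neurod4 at 0.739 ± 0.211 TPM. Within SOXB1, Sox1 at 145, 139.8 and 140.1 TPM stood above the more widely used stem cell factor Sox2 at 38.5, 37.2 and 34.2 TPM. En2 held 90.4% of the Engrailed pair. The order of members matches across libraries in each of these families.

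**Figure D4:**
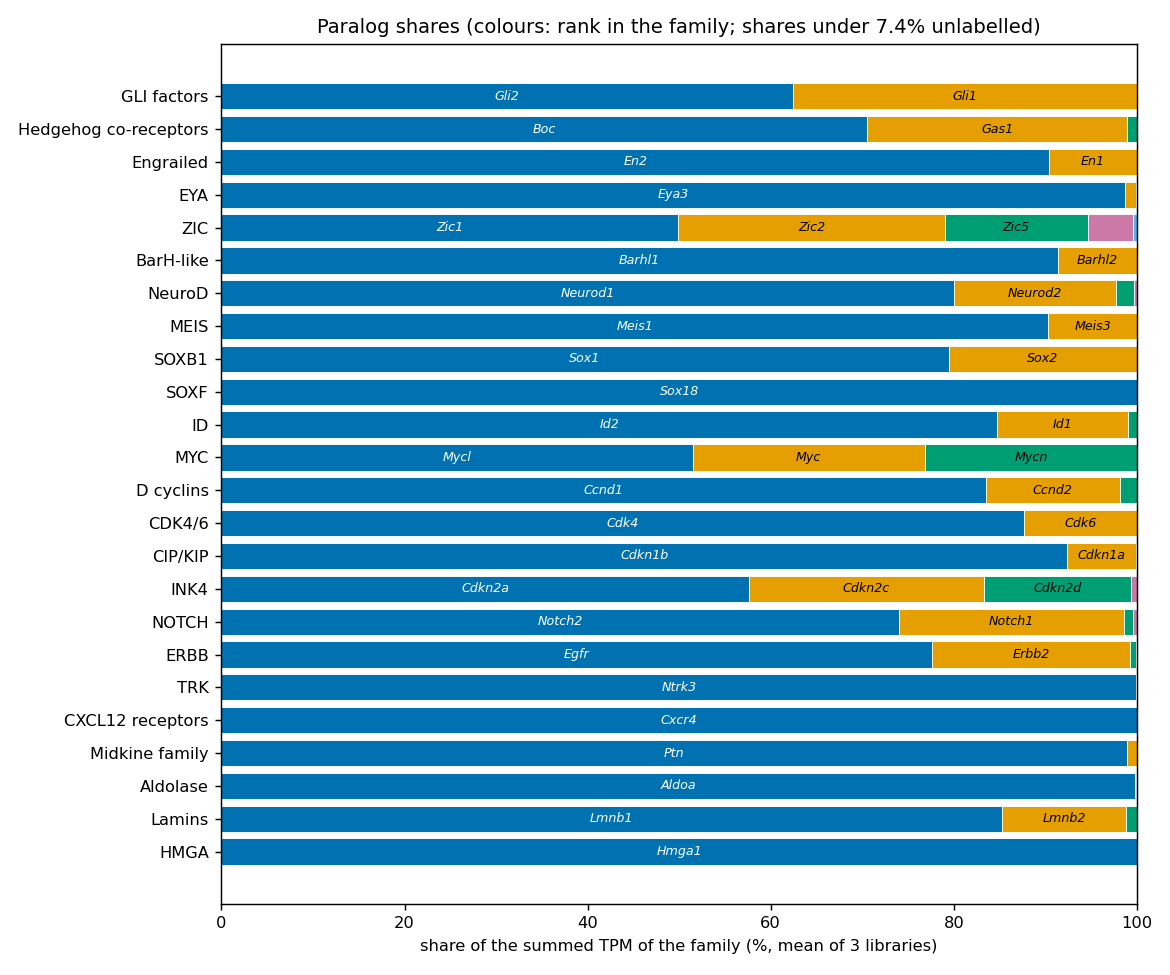
Share (%, mean of 3 libraries) of each member in the summed TPM of its family for 24 of the 75 families, with colours for the rank within the family. Eya3, Sox18, Ntrk3, Cxcr4, Aldoa and Hmga1 take nearly the whole bar, while MYC, ZIC and INK4 are divided among several genes.

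Of 54 receptor tyrosine kinase genes 27 were detected, near the 51.8% of all coding genes. Silent members numbered 5, where 25.5% of all coding genes were silent. Ryk, a WNT co-receptor, led with 251, 242 and 252 TPM, followed by the collagen receptors Ddr2 at 172 ± 5.89 TPM and Ddr1 at 106 ± 5.17 TPM. Egfr at 57.3, 54.1 and 49.8 TPM was the main ERBB gene, with Erbb2 at 14.98 ± 0.659 TPM, Erbb4 at 0.422 ± 0.0996 TPM and Erbb3 at 14 counts. Among insulin-like receptors Igf1r had 29.4 ± 1.71 TPM and Insr 16.01 ± 0.772 TPM, and of their ligands Igf1 had 1 count and Igf2 none. The vascular receptors Kdr, Flt4 and Tie1 were silent, as were Flt3 and Ros1.

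Of 40 growth factor genes 17 were detected and 7 were silent (among them Igf2, Ereg, Nrg1, Hgf, Pdgfd and Vegfc). Ptn, the heparin-binding cytokine pleiotrophin, led with 320.4, 317 and 313 TPM, against 2.21, 4.201 and 3.905 TPM for its only relative Mdk. Mdk was low in replicate 1. Vegfb had 65.2 ± 5.45 TPM, Kitl (stem cell factor) had 54.2 ± 1.02 TPM and Vegfa had 50.03 ± 2.35 TPM, while Kit, the receptor for Kitl, had 2 counts.

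In the WNT list 19 of 30 genes were detected, led by Ctnnb1 (beta-catenin) at 664, 647 and 669 TPM, Sfrp1 and the feedback inhibitor Nkd1 at 259 ± 3.37 TPM. Axin2, the common feedback target, stood lower, at 10.6 ± 0.203 TPM, Lef1 had 0.527 ± 0.154 TPM, and Fzd8 and Dkk1 were silent. In the NOTCH list 16 of 24 genes were detected and none was silent. The ligand Jag1 led with 105, 103 and 96.4 TPM, then Dll3, an inhibitory ligand, with 78.5 ± 4.29 TPM and the target Hey1 with 76.9 ± 4.27 TPM. Notch2 at 53.4 ± 3.26 TPM held 74.0% of the receptor family. The targets Hes1 at 44.8 ± 1.23 TPM and Hes5 at 1.13 ± 0.351 TPM lay far apart.

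BMP signalling opposes granule precursor proliferation. Of 36 genes of the BMP and TGF-beta list 23 were detected, among them Smad4, the common mediator, at 217, 208 and 213 TPM and the receptor gene Bmpr1a at 168 ± 5.23 TPM. Ligands were scarce: Bmp2, Gdf7 and Inhba were silent, and Bmp4, Bmp6 and Bmp7 had 1 count each. Tgfb2 at 37.9 ± 1.57 TPM was the highest ligand of the list. The ID genes, BMP targets that block helix-loop-helix factors, differed strongly. Id2 stood at 103, 98.6 and 107 TPM, Id1 at 15.9, 17.6 and 18.5 TPM and Id4 at 1.01, 1.08 and 1.42 TPM, and Id3 had no count in any library. Rpl11, the gene before Id3 on the chromosome, was at 589.9 ± 14.6 TPM and E2f2, the gene after it, at 34.2 ± 0.813 TPM. The promoters of Id2 (chr12:25096093-25096342, minus strand) and Id3 (chr4:136143572-136143821, plus strand) are shown as the second contrast of an expressed with a silent paralog, with the same window, build and capitals as for the GLI genes.
Id2: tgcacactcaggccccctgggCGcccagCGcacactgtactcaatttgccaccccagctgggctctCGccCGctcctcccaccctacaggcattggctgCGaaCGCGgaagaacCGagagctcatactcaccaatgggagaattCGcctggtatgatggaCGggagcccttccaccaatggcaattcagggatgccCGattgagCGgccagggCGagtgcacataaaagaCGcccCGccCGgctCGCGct
Id3: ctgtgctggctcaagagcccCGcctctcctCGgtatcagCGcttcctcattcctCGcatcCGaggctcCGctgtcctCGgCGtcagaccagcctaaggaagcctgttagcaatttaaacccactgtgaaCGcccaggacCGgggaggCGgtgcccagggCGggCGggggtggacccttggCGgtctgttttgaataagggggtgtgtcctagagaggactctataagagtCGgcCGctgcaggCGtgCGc
Both windows held 18 CpGs at 62.8% G and C, so this count did not separate the silent gene from the expressed one. Of 46 silent members of the lists and families with a promoter entry, 19 (41.3%) had at least 10 CpGs, including Vegfc with 30, Hoxa5 with 28, Kcnd2 with 22 and Ptf1a with 19. Gabra6 had 2. The lists were picked for known regulators, so this share is not comparable with the 9.14% over all silent coding genes as a test.

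Cell cycle genes were high throughout. All 32 proliferation genes were detected, 28 at 100 TPM or more in each library, with a median of 209 TPM. Mcm6, a subunit of the replicative helicase, stood at 979.9, 986 and 1002 TPM, Pcna, the sliding clamp, at 706, 726 and 759.6 TPM and Top2a, a topoisomerase of dividing cells, at 683, 683 and 655 TPM. Mcm6 and Pcna were highest in replicate 3, and Top2a and Mki67 were lowest there. The lowest of the list were Tk1 at 55.3 ± 3.39 TPM and Tyms at 57.3 ± 2.16 TPM, both enzymes of thymidine nucleotide supply.

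Of 27 genes of the G1 phase 26 were detected. Ccnd1 held 83.5% of the D cyclins, above Ccnd2 at 102 ± 2.96 TPM and Ccnd3 at 13.2 ± 0.162 TPM. Its kinase partner Cdk4 had 481, 477 and 510.1 TPM and Cdk6 had 68.6 ± 4.35 TPM. Inhibitors were also present. Cdkn2a, which encodes the INK4a and ARF proteins that gene counts cannot separate, had 174, 181 and 184 TPM, Cdkn2c had 80.2 ± 3.196 TPM, Cdkn2d had 50.2 ± 4.36 TPM and Cdkn2b had 1.85 ± 0.311 TPM. Cdkn2a led this family by deposited length, whereas Cdkn2c led it in CPM and by coding length. In the other inhibitor family Cdkn1b held 92.4% at 160.1, 159 and 151 TPM, Cdkn1a had 12.9 ± 0.774 TPM and Cdkn1c had 6 counts.

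Trp53 stood at 198, 198 and 208 TPM and held 99.5% of the p53 family, and its ligase Mdm2 at 56.6 ± 0.347 TPM. Of 32 genes of the p53 axis and apoptosis 24 were detected. Mcl1, which blocks mitochondrial cell death, had 231, 228 and 231 TPM, well above Bcl2l1 at 68.5 ± 3.42 TPM, Bcl2l2 at 27.4 ± 1.99 TPM and Bcl2 at 13.3 ± 0.607 TPM. The death receptor arm was nearly empty: Fas had no count, and Fasl, Casp8 and Birc3 had 1 each, while Casp9, of the mitochondrial arm, had 14.7 ± 0.0694 TPM. Bcl2a1a was silent.

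All 3 MYC genes were detected. Mycl led with 122, 119.9 and 127 TPM (51.5% of the family), Myc had 60.1, 59.9 and 62.03 TPM and Mycn, the member tied to granule precursors, had 54.7, 54.8 and 56.6 TPM. Myc and Mycn lay close to each other, and Myc was above Mycn in TPM in each library. The order depends on length, since Mycn had more counts than Myc in each library (2218, 2177 and 1802 against 2008, 1959 and 1630). Of their network 12 of 13 genes were detected, with the shared partner Max at 169 ± 2.35 TPM and Mga at 83.7 ± 5.94 TPM. Among 36 genes known to be altered in human medulloblastoma, 33 were detected, led by Ddx3x, an RNA helicase, at 819, 789.8 and 773 TPM, Ctnnb1 and Snrpb, a splicing protein, at 334 ± 11.7 TPM. Gfi1b was silent, Gfi1 had 19 counts and Tert had 3. Counts show expression of these genes, not their sequence.

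In other groups, genes for isoenzymes and chromatin regulators were compared by transcript level, which does not measure protein or activity. Hk2 at 147 ± 2.99 TPM stood above Hk1 at 22.6 ± 0.502 TPM, Ldha at 611 ± 21.8 TPM above Ldhb at 307 ± 5.23 TPM, and the glucose transporter gene Slc2a1 was at 25.1 ± 2.06 TPM. Lamin genes were of the B type, with Lmnb1 at 658, 638 and 637 TPM, Lmnb2 at 103 ± 2.71 TPM and Lmna at 8.58 ± 0.668 TPM. Dnmt1, the maintenance DNA methyltransferase, had 322 ± 7.15 TPM against 21.05 ± 0.281 TPM for Dnmt3a and 8.36 ± 0.731 TPM for Dnmt3b. Ezh2, of the Polycomb methyltransferases, had 246 ± 2.76 TPM and Ezh1 had 19.7 ± 0.894 TPM. Chd4 had 492 ± 18.05 TPM and Smarca4 had 313 ± 6.86 TPM, each the leading remodeller of its family.

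Of 39 ion channel and receptor genes of granule cells 19 were detected, near the 51.8% of all coding genes. Of these, 7 stood at 10 TPM or more in each library, and the median of the list was 0.833 TPM. Kcna2 led with 92.01, 89.4 and 86.4 TPM while Kcna1 was silent, and Kcnd3 had 46.2, 45.2 and 45.2 TPM while Kcnd2 was silent. Gria2, the AMPA receptor subunit that limits calcium entry, had 33.3 ± 1.58 TPM. Of the GABA-A alpha genes Gabra4 led with 18.1 ± 0.582 TPM. Gabra2 had 1 count, and Gabra3, Gabra5 and Gabra6 had none.

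Interferon and antigen genes were detected in 14 of 23 cases, none silent. B2m, the light chain of class I molecules, had 413, 406 and 418 TPM, whereas the heavy chain genes H2-D1 and H2-K1, members of a family of near-identical copies whose reads may be split, had 18.5 ± 2.56 and 6.61 ± 0.687 TPM. Isg15 had 66.3 ± 3.36 TPM and Ifit1 had 49.6 ± 0.6 TPM. The immunoproteasome genes Psmb8 and Psmb9 had 13 counts and 1. Among genes tied to drug handling, of which 10 of 25 were detected, Cyp51 of sterol synthesis led with 339 ± 6.79 TPM, followed by Gstp1 with 150.1 ± 3.63 TPM. The efflux pump gene Abcb1b had 3.42 ± 0.207 TPM and its copy Abcb1a 1 count, and Cyp3a11 was silent.

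Of 34 imprinted, sex-linked and long noncoding genes 20 were detected. Malat1, a nuclear RNA, had 557, 678 and 534 TPM and was highest in replicate 2, Gas5 had 148 ± 7.43 TPM and the imprinted gene Peg3 had 87.3 ± 7.23 TPM. Meg3 and Igf2 were silent, Rian had 7 counts and H19 had 21. The Y-linked genes Ddx3y at 68.8 ± 2.25 TPM, Eif2s3y at 38.03 ± 1.68 TPM, Uty at 12.9 ± 0.524 TPM and Kdm5d at 10.9 ± 0.167 TPM were detected, and Xist had 21 counts. Gnas, which encodes the stimulatory G protein subunit, stood at 6.73 ± 0.0835 TPM. In GENCODE M21, 21.97% of its exon bases are shared with another gene on either strand. Whether reads were lost there was not tested.

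The 15 most abundant coding genes outside the mitochondrial genome were mostly of translation. Eef1a1, the elongation factor that delivers transfer RNA, stood at 11069.8, 10740.5 and 11559.5 TPM. Ptma (prothymosin alpha) followed with 5922, 5623 and 5802 TPM, then the chaperone gene Hsp90ab1 with 4703, 4548 and 4776 TPM and Actb with 3908 ± 101 TPM. The rest were the ribosomal protein genes Rps3a1, Rplp0, Rplp1, Rps15, Rpl4, Rps29, Rps4x, Rps2 and Rpsa, the factor gene Eef2 and the chaperone gene Hsp90aa1, from 2173 to 3817 TPM. Most of these genes have near-identical processed copies, and how reads that match several places were counted is not given in the sources used here, so their levels are uncertain.

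Silence was not general among genes that each cell needs. Of 80 genes for subunits of the proteasome, RNA polymerase II, translation factor 3, the chaperonin and spliceosomal particles, 76 were detected. Psma8, Psmb8, Psmb9 and Psmb11, subunits limited to testis, immune cells or thymus, were not. The share of silent genes did not follow exon sharing, as annotated in GENCODE M21, in 1 direction. It was 44.0% of the 639 coding genes with over 50% of their exon bases shared with another gene, 31.0% of the 15387 that share none and 9.25% of the 5889 in between. Of the silent genes named above, Itgam (68.7%), Igf2 (64.5%), Hoxd3 (62.8%) and Hoxd4 (52.3%) share over 50% of their exon bases, and reads there may not have been assigned.

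The libraries resembled each other closely. CPM elsewhere is counts scaled by library total alone. For the correlation, TMM scaling factors of the libraries and a prior count were added. Log2 CPM then correlated at r = 0.9960 to 0.9966 across 16219 genes, which are not independent replicates. The counts of each pair differed by 7.82 to 8.76 times what sampling alone gives (chi-square over its degrees of freedom), so no pair was the same library deposited again. The common biological coefficient of variation (BCV) was 0.0403, or 0.0319 without replicate 3 and 0.0475 without replicate 2. Per gene, the median coefficient of variation (CV) of TPM over the detected coding genes was 3.88%, and 89.1% of these genes varied by under 10%. The median CV fell from 13.3% at 1 to 2 TPM to 2.56% at 100 to 1000 TPM, where counting alone would give 12.2% and 1.11%. It was larger again, at 3.39%, for the 79 genes at 1000 TPM or more, where counting alone would give 0.536%.

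What differed among libraries followed gene length and a few gene groups. Of the 254 detected coding genes under 1 kb, 56.7% were highest in replicate 3, and of the 2211 over 8 kb 60.5% were lowest there. The median log2 ratio of replicate 3 to the mean of the other libraries was 0.09 for the short genes and -0.05 for the long. In replicate 1 the order was the opposite, at -0.08 for the short genes and 0.04 for the long. Of 77 ribosomal protein genes 76 were highest in replicate 3, with a median log2 ratio of 0.10. Among long genes, the markers Mki67 and Fat2 were lowest in replicate 3. Fat1 (69.3, 64.7 and 51.8 TPM) and Apc (172, 156 and 149 TPM), picked as examples after their values were seen, were lowest there too. Gene length and these groups moved together, and the part of each in the differences was not tested.

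The 13 coding genes of the mitochondrial genome were all lowest in replicate 3, with a median log2 ratio of -0.58, and their median CV was 23.1%. The mitochondrial genome as a whole took 1.70%, 1.44% and 1.09% of the counts in replicates 1 to 3. For example, mt-Co1, a subunit of cytochrome oxidase, had 13060.2, 10929 and 8248 TPM. Replicate 2 stood apart in another way. An identifier with no symbol in the tables used, ENSMUSG00000119584, had 6052, 15642 and 7808 TPM, and Lars2, the mitochondrial leucyl-tRNA synthetase, had 92.7, 166 and 107 TPM. Both were highest in replicate 2.

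**Figure D5:**
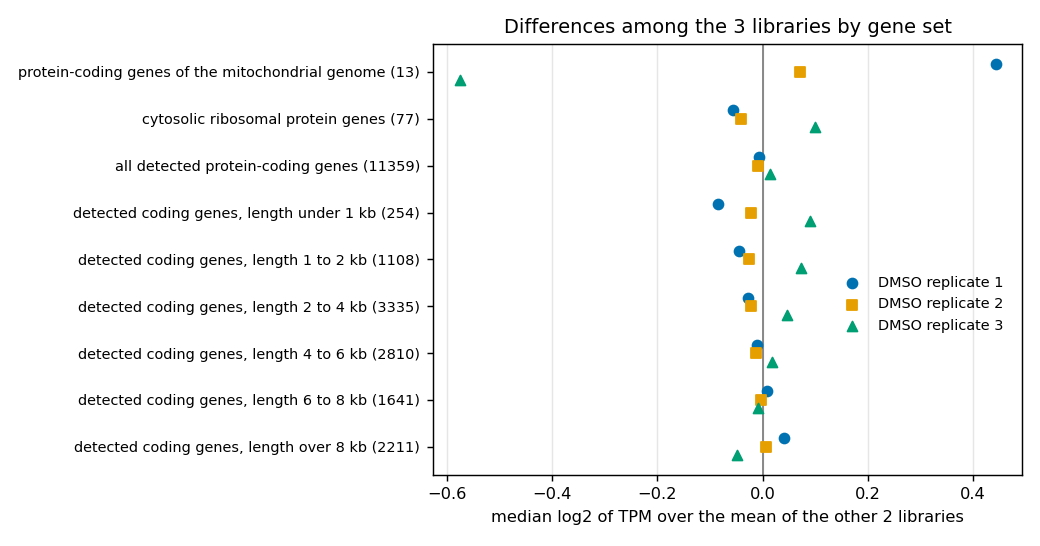
Median log2 ratio of each DMSO library's TPM to the mean of the other 2 libraries for mitochondrial genes, ribosomal protein genes, all detected coding genes and detected coding genes by length, with the number of genes in brackets. Replicate 3 moves from 0.09 for genes under 1 kb to -0.05 for genes over 8 kb and lies at -0.58 for mitochondrial genes.

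Few genes above the lowest levels varied much among libraries. At 5 TPM or more 26 coding genes had a CV over 20%. The 12 with the largest CV, leaving out unnamed gene models, were Hist1h2bk, AC131692.1, Lars2, Serpinb6e, Gcat, Zfp811, Pcp4, Lmo1, R3hdml, Nkx3-2, Insl6 and Foxj1, with CVs of 22.4% to 49.6%. Counting error alone would give them 0.805% to 18.7%. Because these genes were picked for their large CV, this comparison does not test their spread. Hist1h2bk, a histone gene, had 3.59, 4.36 and 8.69 TPM, Serpinb6e, a protease inhibitor gene with close relatives, had 24.3, 27.4 and 15.7 TPM and Foxj1, the factor of motile cilia, had 5.02, 5.51 and 7.57 TPM. Hist1h2bk and Foxj1 were highest in replicate 3 and Serpinb6e was lowest there. None of the 8 markers is among them.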

How the data were processed

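Messenger RNA of MB21 cells was sequenced in 3 libraries per group, and the DMSO group was used here. The authors deposited whole-number read counts per gene beside each gene's length. The builds GRCm39 and GRCh38.p13 appear in the submitters' processing notes, as do the tools edgeR, R 4.1.0, featureCounts, STAR 2.7.9a and Subread 2.0.3, all without a role. The strand setting and the treatment of multi-mapping reads were not given in the sources used here, so overlapping, antisense and near-identical genes are uncertain. Each column matched a sample, leaving 0 unmatched.

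Symbols were matched for 52083 of 55416 identifiers. Gene classes and exon sharing, taken over either strand, came from GENCODE M21 (GRCm38, an older build). Sharing may thus differ in the annotation used for counting. For 99.0% of 52135 shared genes the deposited length was within 1% of the summed exons there. TPM was computed from count and length over all identifiers. A level of 3 counts was the floor. BCV came from edgeR 4.0.16 in R 4.3.3 with an intercept alone, TMM scaling and filterByExpr (minimum count 10, minimum total 15), and was tested on simulated data. Python 3.11.15 and matplotlib 3.10.9 did the rest. With 1 group there was no test and no p-value.

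The 34 gene lists, 75 families and 8 markers were chosen with earlier results of these data known. Genes were named by rule: the markers, the 3 highest and all silent members of each list, the members of families described, the 15 most abundant coding genes and the 12 with the largest CV at 5 TPM or more. Some genes that this rule picks are not reported here. Other genes named were chosen after their values were seen. Promoters came from RefSeq on GRCm38.p6, with 13827 of 21915 coding genes matched to 1 entry. Alternatives covered thresholds, lengths, scaling, filters and each library left out.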

Additional observations from a re-analysis of the deposited data

How the results depend on the processing

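Over the alternatives run, the counts of detected coding genes (9842 to 11889), of silent coding genes (5598 to 7116) and of families that kept their leader (68 to 73 of 73) stayed within 1.5 times the values reported. The median level of detected coding genes, 32.3 TPM, was 36.8 TPM when TPM was taken over coding genes alone. It was 32.6 TPM without the unnamed identifier of highest level, 35.2 TPM with the longest coding transcript and 32.1 TPM with the longest coding sequence. Leaving out each library in turn gave 32.1 to 32.3 TPM. The BCV was 0.0319 to 0.0475 with a library left out, and 0.0384 to 0.0409 under other scalings and filters. The median CV was 2.66% to 3.62% with a library left out. Of 16 genes followed singly, none moved by over 1.5 times except with coding length, where 9 did, by 0.334 to 1.68 times. Length choice also changed the leader in some families: Fzd7 gave way to Fzd3 and Tcf7l1 to Tcf7l2 in CPM and by coding length. Coding lengths from a protein table were planned and not run, since no such table was used here; both lengths from GENCODE took their place. These and the value without the unnamed identifier were chosen after seeing the data. No paired analysis was possible because 1 group is described. The 3 libraries limit every SD, and for a gene of 1 kb a level under 0.0882 TPM cannot be told from 0.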
